A study of Mus musculus with 6 samples.

Results

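Collagen chains are the subunits of the collagen family, and they were taken here as every protein-coding gene of the count table whose symbol reads Col, a type number, a and a chain number. This rule found 44 genes of 57010 in the table, and 37 of them had at least 10 counts in 3 or more of the 6 libraries. The libraries were made from primary neonatal mouse cardiomyocytes (NMCMs), isolated from newborn C57BL/6 mice and kept under hypoxia (HO). The HO + Vehicle group had 3 libraries (V1 to V3) and the HO + β-SITO group had 3 (T4 to T6), where β-SITO is β-sitosterol, a plant sterol. Hypoxia was shared by all 6 libraries, and no normoxic library was used here. Neither the dose of β-SITO, nor the time under hypoxia, nor the number of isolations behind each group is stated for these libraries, so p-values measure only the spread between them, which may be technical. The preparation removed fibroblasts by letting them adhere first, which lowers but need not clear them from a cardiomyocyte culture.

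A collagen molecule is a rope of 3 chains wound into a triple helix, and each helical stretch repeats a Gly-X-Y triplet because only glycine is small enough for the centre of the rope. Fibrillar chains form the cross-banded fibrils that carry tension, and type IV chains form the sheet of the basement membrane around cardiomyocytes and vessels. The type VI, fibril-associated and transmembrane chains link fibrils to each other, to the sheet and to cells, and short-chain collagens can build lattices. In the heart most fibrillar collagen is made by fibroblasts, and its accumulation after injury is the core of fibrosis, whereas cardiomyocytes are wrapped in basement membrane that several cell types supply.

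The glycine repeat is shown for 5 chains because it defines a collagen chain and the rule on names did not use it. Each line below is the first 45 bases of the longest unbroken run of glycine codons at every 3 codons. Coding sequences were read from GENCODE vM21. Capitals mark the glycine codons that make up this run, and glycine codons between them, as in Col3a1, are in lower case.
Col1a1 (fibrillar): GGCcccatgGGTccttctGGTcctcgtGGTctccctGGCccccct
Col3a1 (fibrillar): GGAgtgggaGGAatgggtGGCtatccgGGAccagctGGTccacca
Col4a1 (basement membrane): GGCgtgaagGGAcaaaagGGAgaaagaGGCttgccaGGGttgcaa
Col6a1 (type VI): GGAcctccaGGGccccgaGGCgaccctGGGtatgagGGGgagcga
Col22a1 (fibril-associated): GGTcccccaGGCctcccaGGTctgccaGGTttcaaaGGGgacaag
In Col1a1 this run went on for 338 triplets and in Col3a1 for 344, and over the 11 fibrillar chains the longest run held 216 to 344 triplets. The 8 basement membrane chains had shorter longest runs, of 30 to 66 triplets, and Col4a1 broke its helix into 22 runs of at least 6 triplets that summed to 443. The 6 type VI chains had longest runs of 37 to 87 triplets, 87 in Col6a1, and the 9 fibril-associated chains of 32 to 113, 113 in Col22a1. These lengths describe the genes and are the same in every library.

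The libraries held 16694734 to 18460522 counts, and the 3 mRNAs that fill the largest part of this family, Col3a1, Col1a1 and Col1a2, were among the 7 genes with most counts in every library. The cells carried the markers of cardiomyocytes, with all 14 markers on the list detected and Myh6 between 1726 and 3268 CPM, which are TMM-normalized counts brought to one library size. They also carried markers of other cells, and of the lists for fibroblasts, smooth muscle and pericytes, endothelial cells, macrophages and the epicardium no marker was under 10 counts in all 6 libraries. T4 stood apart from T5 and T6, with a summed cardiomyocyte marker level of 6093 CPM against 10287 and 10430 CPM, and values without T4 are given where they change a call. In such bulk samples, fewer cells of a type and less RNA per cell cannot be told apart. The library names carry a suffix in the β-SITO group only, and whatever that suffix stands for cannot be told apart from β-SITO itself.

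Across the family, most chains had higher levels with β-SITO. A chain was called where edgeR's quasi-likelihood test gave an adjusted p under 0.05 and the change was more than 2-fold, and p-values were adjusted over all 14799 genes tested. Of the 37 chains, 16 were called higher, against 12.7% of all genes tested, and 2 were called lower, against 10.1%. With no fold cutoff, 29 chains passed higher, against 33.0% of all genes, 2 passed lower, against 33.9%, and 6 did not pass. The median log2 fold change of the 37 chains was 0.90, beside -0.0073 over all genes tested. The groups did not overlap for 33 of the 37 chains, against 70.5% of all genes. Col24a1 and Col6a5 reached 10 counts only in HO + β-SITO libraries and Col22a1 only in HO + Vehicle libraries, so these 3 had to differ. Without them, 15 chains were called higher and 1 lower of 34, and their median log2 fold change was 0.91. Without T4, 16 chains were called higher and 3 lower. The added call was Col9a3, whose log2 fold change went from -0.75 (adjusted p = 0.107) to -1.13 (edgeR adjusted p = 0.033).

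**Figure D1:**
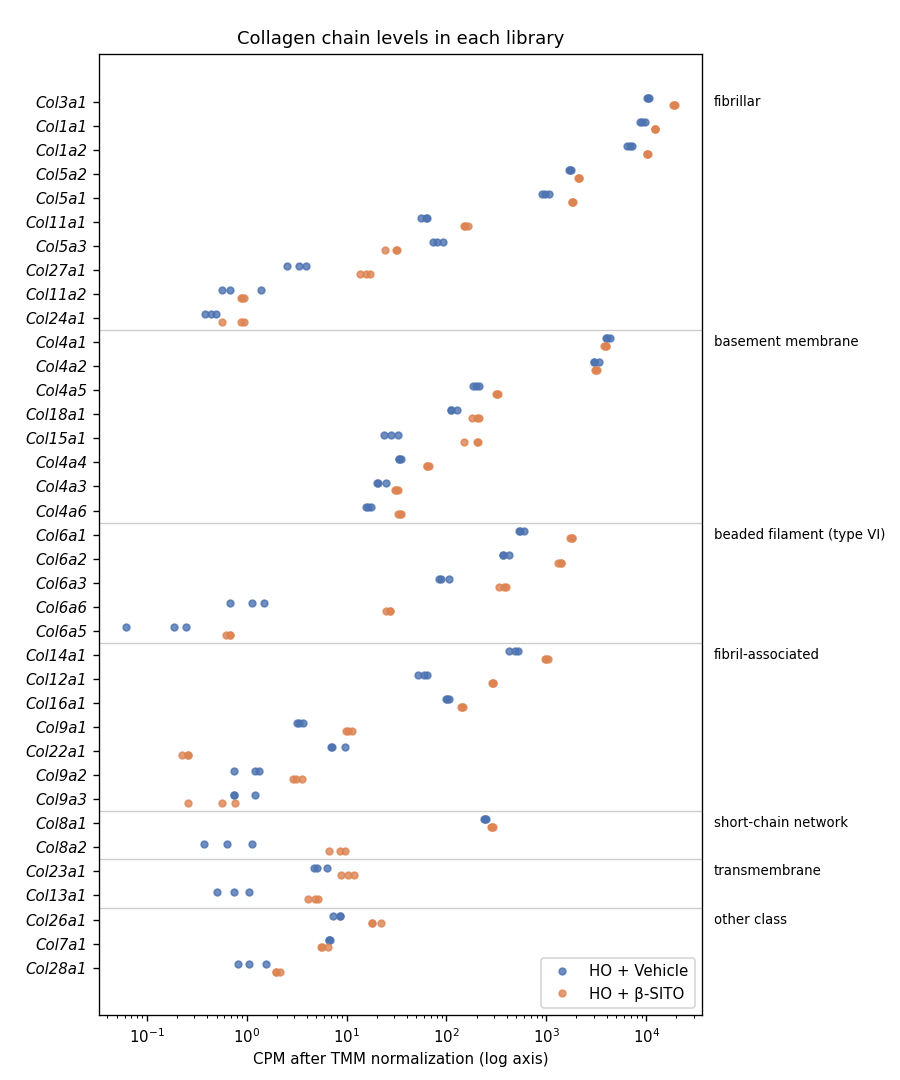
Level of each of the 37 collagen chains in each library, in CPM after TMM normalization on a log axis, with HO + Vehicle libraries in blue and HO + β-SITO libraries in orange. Col3a1 is at the top of the range in both groups, the 5 type VI chains shown are all higher with β-SITO, and Col22a1 and Col5a3 are called lower. The groups overlap for Col4a1, Col4a2, Col11a2 and Col9a3.

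**Figure D2:**
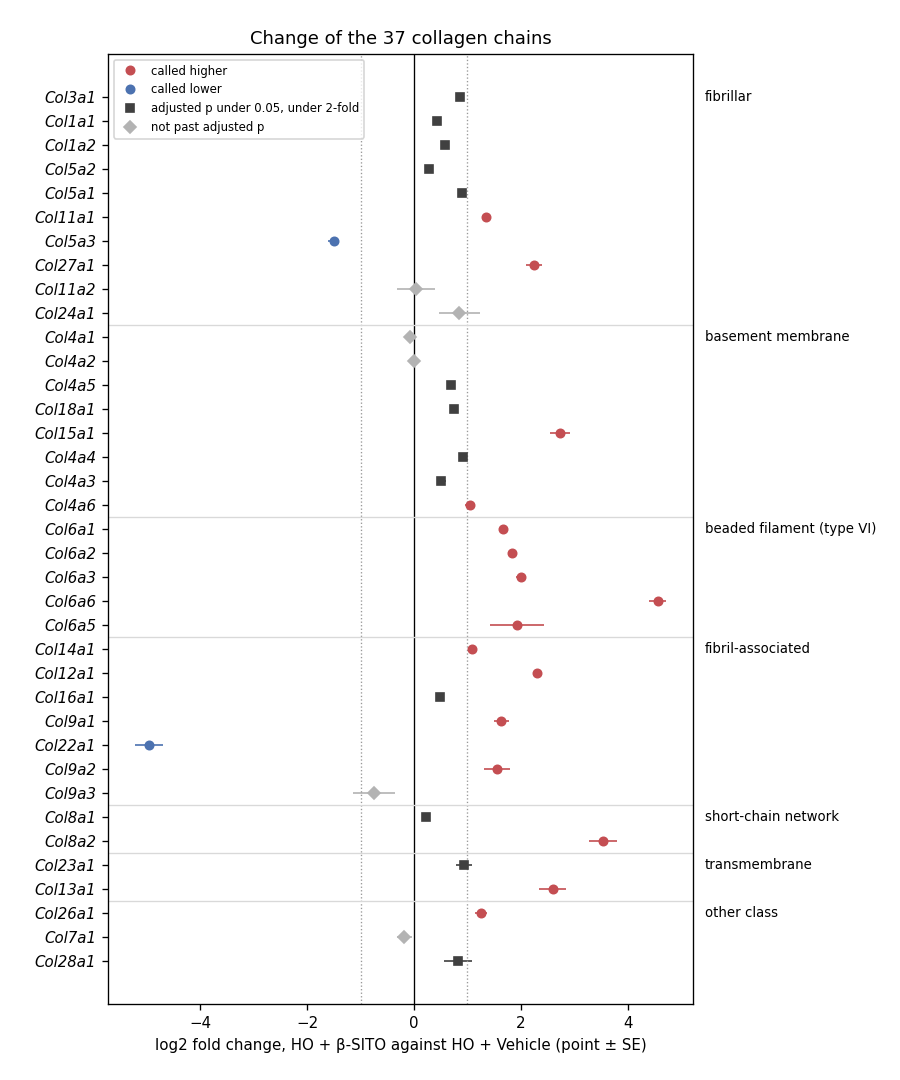
Log2 fold change of the 37 chains, HO + β-SITO against HO + Vehicle, with the standard error (SE) as a bar and dotted lines at 2-fold. Changes run from -4.96 for Col22a1 to 4.56 for Col6a6, and 16 chains are called higher (red) and 2 lower (blue).

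Among the fibrillar chains, the abundant ones rose by less than 2-fold, the minor chains Col11a1 and Col27a1 rose by more, and Col5a3 fell. Of 11 fibrillar chains 10 passed the count filter, 2 of them were called higher and 1 lower, shares that lie near the 12.7% and 10.1% of all genes. With no fold cutoff 7 of the 10 passed higher and 1 lower, against 33.0% and 33.9%. Col3a1, whose protein forms the thin fibrils of type III, lies at chr1:45350698-45388866 on the plus strand (build GRCm39, as the labels give it) and had more counts than any other gene in each library. Col3a1 had 10473, 10221 and 10570.5 CPM in V1, V2 and V3 and 18942, 19173 and 18435 CPM in T4, T5 and T6. This was a log2 fold change of 0.85 ± 0.061 (SE; edgeR adjusted p = 1.40e-10). It therefore rose 1.81-fold, and every HO + β-SITO library lay far above every HO + Vehicle library. The type I genes followed, with Col1a1 (chr11:94827050-94843868) giving 2 of the 3 chains of the common type I molecule and Col1a2 (chr6:4504814-4541544) the other. Col1a1 had 9618, 8952 and 8729 CPM in V1, V2 and V3 and 12142, 12286 and 12161 CPM in T4, T5 and T6. Its log2 fold change was 0.42 ± 0.063 (SE), with an edgeR adjusted p = 6.20e-06. The HO + β-SITO libraries lay close together, and V1 was the highest of the HO + Vehicle libraries. Col1a2 had 7161, 6426 and 6812 CPM in V1, V2 and V3 and 10289, 10162 and 10194 CPM in T4, T5 and T6. For Col1a2 the log2 fold change was 0.59 ± 0.063 (SE; edgeR adjusted p = 7.24e-08). The groups did not overlap for either gene, and the rise was 1.34-fold for Col1a1 and 1.50-fold for Col1a2.

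The study's own RT-qPCR primers for collagen I and collagen III are shown because they name the chains these 2 assays read. Each primer matched 1 gene among the GENCODE vM21 transcripts, inside the coding sequence.
Collagen I forward: atggattcccgttcgagtac
Collagen I reverse: tcagctggatagcgacatcg
Collagen III forward: cgtagatgaattgggatgca
Collagen III reverse: acatggttctggcttccag
The collagen I pair lies at bases 4107 to 4169 of the Col1a1 transcript and the collagen III pair at bases 291 to 363 of the Col3a1 transcript. In these libraries, the genes that the primers match rose 1.34-fold (Col1a1) and 1.81-fold (Col3a1). The paper used the assays on other samples, infarcted mouse hearts and cardiac fibroblasts given TGF-β. In those it reported less collagen I and collagen III mRNA with β-SITO, the opposite direction.

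Type V chains start and limit the width of type I fibrils, and the members of this type went in different directions. Col5a1 had 1056, 905 and 963 CPM in V1, V2 and V3 and 1796, 1857 and 1798 CPM in T4, T5 and T6. On the log2 scale Col5a1 changed by 0.90 ± 0.066 (SE; edgeR adjusted p = 1.80e-10). Its partner in the most common type V molecule is Col5a2, which had more counts and a smaller difference. Col5a2 had 1737, 1668 and 1766 CPM in V1, V2 and V3 and 2132, 2098 and 2081 CPM in T4, T5 and T6. The log2 fold change of Col5a2 was 0.29 ± 0.059 (SE; edgeR adjusted p = 2.53e-04). Col5a1 thus reached 1.86-fold and Col5a2 1.22-fold, both short of a call. Col5a3 (chr9:20681346-20726363), a less widespread chain of the same type, fell in the same libraries. Col5a3 had 91.6, 73.7 and 80.8 CPM in V1, V2 and V3 and 24.5, 31.7 and 31.0 CPM in T4, T5 and T6. This was a log2 fold change of -1.50 ± 0.10 (SE; edgeR adjusted p = 2.45e-08). Its level was 2.83-fold lower with β-SITO, and the lowest HO + Vehicle library had 73.7 CPM against 31.7 CPM in the highest HO + β-SITO library. The 2 remaining calls were in chains best known from cartilage. Col11a1 had 62.7, 56.0 and 63.9 CPM in V1, V2 and V3 and 164, 152 and 151 CPM in T4, T5 and T6. Its log2 fold change was 1.36 ± 0.066 (SE), with an edgeR adjusted p = 2.08e-13. Col27a1, a long minor fibrillar chain, was much scarcer. Col27a1 had 3.35, 3.89 and 2.54 CPM in V1, V2 and V3 and 13.6, 15.5 and 17.1 CPM in T4, T5 and T6. For Col27a1 the log2 fold change was 2.24 ± 0.15 (SE; edgeR adjusted p = 4.12e-11). Col11a1 was 2.56-fold and Col27a1 4.72-fold higher, the second from 41 to 62 counts in the HO + Vehicle libraries. Col24a1 and Col11a2 had at most 22 counts in a library and did not pass (edgeR adjusted p = 0.0599 and 0.924), although Col24a1 passed with upper quartile scaling, with library size only and without T5 (0.0295, 0.0288 and 0.0349). The sign of Col11a2 depended on single libraries, with log2 fold changes of -0.19 to 0.55 when each was left out.

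In the basement membrane the main chains did not pass the test, while the minor type IV chains and Col15a1 and Col18a1 were higher. All 8 chains passed the count filter, 2 were called higher (12.7% of all genes), 6 passed higher with no fold cutoff (33.0%) and 2 did not pass. Col4a1 and Col4a2 together form the type IV molecule found in almost every basement membrane. Col4a1 had 4314, 3914 and 4054 CPM in V1, V2 and V3 and 3977, 3906 and 3793 CPM in T4, T5 and T6. Col4a2 had 3341, 3028 and 3023 CPM in V1, V2 and V3 and 3187, 3127 and 3094 CPM in T4, T5 and T6. Both ranges overlapped between the groups, and neither gene passed. Their log2 fold changes were -0.073 ± 0.062 and 0.0025 ± 0.063 (SE; edgeR adjusted p = 0.314 and 0.976), and that of Col4a1 turned positive with library size only (0.075) and with upper quartile scaling (0.071). Under these same scalings Col4a2 was at 0.15 each, past the threshold (edgeR adjusted p = 0.04 and 0.0442).

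The other type IV chains form the molecules of more specialised membranes, such as those of the kidney filter and smooth muscle, and had lower counts here. Col4a6 had 16.5, 15.5 and 17.7 CPM in V1, V2 and V3 and 32.9, 35.1 and 34.5 CPM in T4, T5 and T6. On the log2 scale Col4a6 changed by 1.04 ± 0.082 (SE; edgeR adjusted p = 5.30e-10). This call sits near 2-fold, at 2.06-fold, and glmTreat, which tests against 2-fold, did not make it. Col4a3, Col4a4 and Col4a5 passed without a call, with log2 fold changes of 0.51, 0.93 and 0.70 and edgeR adjusted p of at most 2.99e-05. Col15a1 (chr4:47208161-47313167) and Col18a1 encode a pair of related chains that carry long sugar chains and sit where basement membrane meets the fibres around it. Col15a1 had 33.1, 23.8 and 27.6 CPM in V1, V2 and V3 and 151, 207 and 202 CPM in T4, T5 and T6. The log2 fold change of Col15a1 was 2.73 ± 0.19 (SE; edgeR adjusted p = 5.26e-05). T4 was the lowest of its group, yet it still lay far above V1, the highest HO + Vehicle library. The rise was 6.63-fold, and without T4 the log2 fold change was 2.86. Col18a1 rose 1.69-fold, from 110 to 129 CPM in vehicle libraries to 179 to 213 CPM in β-SITO libraries (log2 fold change 0.76, edgeR adjusted p = 4.32e-08). It overlaps Slc19a1 on the other strand, which had at most 146 counts in a library.

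Of the 6 type VI chains 5 passed the filter and were called higher, against 12.7% of all genes. Among them Col6a5 passed the filter only through its HO + β-SITO libraries, and Col6a4 was under the filter with fewer counts in those libraries. Type VI collagen forms beaded filaments close to cell surfaces, with Col6a1, Col6a2 and Col6a3 as the standard trio of chains. Col6a1 had 599, 536 and 539 CPM in V1, V2 and V3 and 1724, 1785 and 1793 CPM in T4, T5 and T6. This was a log2 fold change of 1.66 ± 0.064 (SE; edgeR adjusted p = 4.95e-15). Col6a2, the second chain, lies near Col6a1 on chromosome 10 and showed the same pattern. Col6a2 had 425, 368 and 366 CPM in V1, V2 and V3 and 1313, 1409 and 1386 CPM in T4, T5 and T6. Its log2 fold change was 1.83 ± 0.069 (SE), with an edgeR adjusted p = 3.32e-15. Col6a3, the longest chain of the trio, was the scarcest of them per length. Col6a3 had 106, 84.4 and 88.1 CPM in V1, V2 and V3 and 337, 398 and 380.4 CPM in T4, T5 and T6. For Col6a3 the log2 fold change was 2.0 ± 0.088 (SE; edgeR adjusted p = 3.90e-11). The 3 chains thus rose 3.17-fold, 3.55-fold and 4.0-fold, the lowest HO + β-SITO library lay above the highest HO + Vehicle library for each, and T4 was the lowest of its group. Without T4 the log2 fold change of Col6a3 was 2.07. Col6a1 moved from rank 226 to 275 among all genes by counts in the HO + Vehicle libraries to rank 32 or 33 in the HO + β-SITO libraries. Col6a5 and Col6a6 encode chains that can take the place of Col6a3 in the molecule, and they lie beside each other on chromosome 9. Col6a6 had 1.14, 1.50 and 0.682 CPM in V1, V2 and V3 and 24.6, 27.5 and 26.9 CPM in T4, T5 and T6. On the log2 scale Col6a6 changed by 4.56 ± 0.16 (SE; edgeR adjusted p = 8.17e-16). This was a 23.7-fold rise from 11 to 24 counts in the HO + Vehicle libraries to 479 to 517 counts in the HO + β-SITO libraries. Col6a5 had 3, 1 and 4 counts in V1, V2 and V3 and 12, 12 and 13 counts in T4, T5 and T6. Its levels are therefore near the floor of these libraries, and its log2 fold change of 1.93 ± 0.51 (SE; edgeR adjusted p = 2.32e-03) was no longer called with glmTreat. Col6a4, the third of this row of genes, did not pass the count filter and had 16, 8 and 13 counts in the HO + Vehicle libraries and 1, 2 and 3 in the HO + β-SITO libraries.

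Most fibril-associated chains, which decorate fibril surfaces, rose, and 1 fell by the largest factor of the family. Of 9 chains 7 passed the filter, 4 were called higher and 1 lower (12.7% and 10.1% of all genes). The chain called lower, Col22a1, passed the filter only through its HO + Vehicle libraries, so it had to differ. Col12a1 and Col14a1 bind the surface of type I fibrils in tissue under tension. Col12a1 had 64.3, 52.5 and 60.1 CPM in V1, V2 and V3 and 287, 290.0 and 290.3 CPM in T4, T5 and T6. The log2 fold change of Col12a1 was 2.29 ± 0.069 (SE; edgeR adjusted p = 7.71e-17). Col12a1 rose 4.90-fold, and its HO + β-SITO libraries were nearly level. Col14a1 had 518, 418 and 481 CPM in V1, V2 and V3 and 1047, 1002 and 978 CPM in T4, T5 and T6. This was a log2 fold change of 1.09 ± 0.072 (SE; edgeR adjusted p = 4.30e-11). Col14a1 rose 2.14-fold and lost its call with glmTreat. Type IX chains are known from cartilage and were scarce here, and the pair Col9a1 and Col9a2 was called higher. Col9a1 had 3.35, 3.64 and 3.16 CPM in V1, V2 and V3 and 9.76, 10.5 and 11.3 CPM in T4, T5 and T6. Its log2 fold change was 1.64 ± 0.14 (SE), with an edgeR adjusted p = 2.17e-09. Col9a2 was scarcer still, at 12 to 21 counts in the HO + Vehicle libraries. Col9a2 had 1.20, 1.32 and 0.744 CPM in V1, V2 and V3 and 3.55, 2.92 and 3.12 CPM in T4, T5 and T6. For Col9a2 the log2 fold change was 1.55 ± 0.25 (SE; edgeR adjusted p = 1.27e-05). The third chain of type IX, Col9a3, had 5 to 19 counts in a library and was not higher (log2 fold change -0.75). Col16a1 rose 1.40-fold without a call (log2 fold change 0.49, edgeR adjusted p = 2.56e-07). Col22a1 (chr15:71667644-71906076, minus strand), known from the junction between muscle and tendon, fell. Col22a1 had 9.66, 7.02 and 7.13 CPM in V1, V2 and V3 and 0.257, 0.225 and 0.260 CPM in T4, T5 and T6. On the log2 scale Col22a1 changed by -4.96 ± 0.27 (SE; edgeR adjusted p = 1.27e-12). In counts this was 153, 112 and 115 against 5, 4 and 5, a 31.1-fold lower level with β-SITO.

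The remaining classes are small, with 2 short-chain, 2 transmembrane and 3 other chains past the filter. Of these chains 3 were called higher and 0 lower by edgeR, against 12.7% and 10.1% of all genes. The short-chain network pair Col8a1 and Col8a2, which can build hexagonal lattices under the endothelium, changed by very different amounts. Col8a1 had 237, 241 and 249.8 CPM in V1, V2 and V3 and 289, 279.9 and 283 CPM in T4, T5 and T6. The log2 fold change of Col8a1 was 0.23 ± 0.056 (SE; edgeR adjusted p = 1.42e-03). Col8a2 started from a level near the floor of the libraries. Col8a2 had 0.632, 1.13 and 0.372 CPM in V1, V2 and V3 and 6.73, 9.67 and 8.64 CPM in T4, T5 and T6. This was a log2 fold change of 3.54 ± 0.26 (SE; edgeR adjusted p = 8.02e-10). Col8a1 thus moved 1.17-fold, and Col8a2 rose 11.6-fold from 6 to 18 counts to 131 to 172. Col13a1, a transmembrane chain known from the neuromuscular junction, rose 6.04-fold. Col13a1 had 0.505, 1.07 and 0.744 CPM in V1, V2 and V3 and 5.14, 4.10 and 4.84 CPM in T4, T5 and T6. Its log2 fold change was 2.60 ± 0.25 (SE), with an edgeR adjusted p = 1.33e-08. Col26a1, a secreted chain that is little studied, rose 2.37-fold. Col26a1 had 8.65, 8.59 and 7.25 CPM in V1, V2 and V3 and 22.1, 17.9 and 18.1 CPM in T4, T5 and T6. For Col26a1 the log2 fold change was 1.25 ± 0.11 (SE; edgeR adjusted p = 5.82e-09). The groups did not overlap for either gene. Col23a1 and Col28a1 passed without a call, with log2 fold changes of 0.93 and 0.82, and Col28a1 did not pass with DESeq2 (adjusted p = 0.0742) or without V1 (edgeR adjusted p = 0.0546). Col7a1, the chain of the fibrils that anchor skin, had 5.57 to 6.76 CPM in the 6 libraries and did not pass (log2 fold change -0.18, edgeR adjusted p = 0.253).

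Of the 7 chains under the filter, Col2a1 had 0 or 1 count in each library, and no library held more than 20 counts of any of the 7. Just inside the filter were Col6a5 (12, 12 and 13 counts in the HO + β-SITO libraries) and Col24a1 (17, 10 and 18), and just outside it was Col20a1 with 15, 17 and 7. Col10a1 had 5, 20 and 9 counts in the HO + β-SITO libraries and at most 1 in the HO + Vehicle libraries. Col17a1 had 5, 13 and 0 counts in V1, V2 and V3 and 1 count in each HO + β-SITO library. Col19a1 had at most 8 counts in a library and Col25a1 at most 7. These chains were not tested.

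Collagen mRNA took a larger part of each β-SITO library. All 44 chains together held 3.82%, 3.58% and 3.63% of the counts of V1, V2 and V3 and 6.19%, 6.20% and 6.09% of those of T4, T5 and T6. The mean was 3.68% ± 0.129 against 6.16% ± 0.0579 (SD, n = 3), and a two-sided exact permutation test gave p = 0.1, below which 3 libraries against 3 cannot go. Fibrillar chains rose from 2.70% to 2.86% of counts to 4.72% to 4.80%, and chains outside the fibrillar and basement membrane classes from 0.176% to 0.198% to 0.552% to 0.566%. Basement membrane chains held 0.701% to 0.767% against 0.813% to 0.837%. The shares did not overlap between the groups in any of these classes, with an exact permutation p = 0.1 each. This scale is a share of raw counts, on which basement membrane chains lay higher, and after TMM normalization their main members Col4a1 and Col4a2 did not pass. Col1a1, Col1a2 and Col3a1 held 67.5% to 68.3% of all collagen counts in vehicle libraries and 70.4% to 70.5% in β-SITO libraries. The type VI part of all collagen counts went from 2.59% to 2.81% to 5.79% to 6.19%.

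**Figure D3:**
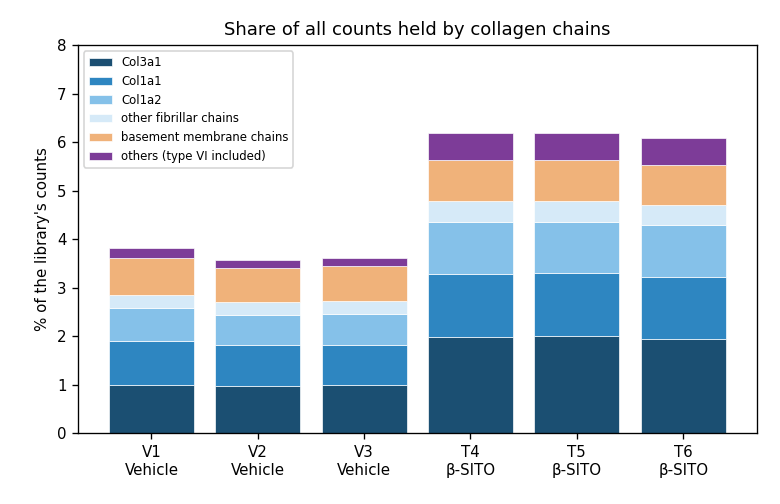
Share of each library's counts held by collagen chains, in percent, stacked by gene or class from an axis that starts at 0. The 3 HO + β-SITO bars reach 6.09% to 6.20% and the 3 HO + Vehicle bars 3.58% to 3.82%, and Col3a1 is the largest part of each bar.

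Levels of chains above were mostly given in counts or CPM, which do not account for length. Here they are compared per length, as CPM per kilobase (kb) of the union of exons in GENCODE vM21. This length can differ widely where coding lengths are alike. Col1a1, Col1a2 and Col3a1 have 6563, 12426 and 9816 exon bases but 1453, 1372 and 1464 codons. Their order and ratios on this scale therefore depend on the length chosen. On this scale the 5 highest chains by the mean of both groups were Col1a1, Col3a1, Col1a2, Col4a1 and Col4a2. In the HO + Vehicle group Col1a1 came first with 1387 CPM per kb and Col3a1 second with 1062, and in the HO + β-SITO group Col3a1 had 1920 and Col1a1 1858 CPM per kb. Col4a1 had 549 and 521 CPM per kb in these groups and Col1a2 547 and 822. Col6a1 went from 127 to 403 CPM per kb.

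The ratio of 2 mRNAs was computed in each library for 7 pairs, 6 of them chains of the same collagen type and 1, Col3a1 over Col1a1, chains of types III and I that lie side by side in fibrils. Col1a1 over Col1a2 per kb was 2.54, 2.64 and 2.43 in V1, V2 and V3 and 2.23, 2.29 and 2.26 in T4, T5 and T6, a log2 difference of -0.16. The size of such a ratio depends on the exon lengths used, and the log2 difference between the groups does not. Col3a1 over Col1a1 per kb was 0.728, 0.763 and 0.810 against 1.04, 1.04 and 1.01, a log2 difference of 0.43. Col5a1 over Col5a2 per kb rose from 0.687, 0.613 and 0.616 to 0.952, 1.0 and 0.976, a log2 difference of 0.61. There was thus more Col3a1 mRNA per Col1a1 and more Col5a1 per Col5a2 in each HO + β-SITO library than in any HO + Vehicle library. The basement membrane pair Col4a1 over Col4a2 differed by -0.076 on the log2 scale, and the type VI pairs Col6a1 over Col6a2 and Col6a3 over Col6a1 by -0.16 and 0.34. The widest difference was in Col8a1 over Col8a2, -3.39 on the log2 scale, with log2 ratios of 7.70 to 9.28 in vehicle libraries and 4.85 to 5.42 in β-SITO libraries. The groups did not overlap for 7 of the 7 pairs, and each exact permutation test gave p = 0.1 and an adjusted p = 0.1 over the 7 pairs, which is the smallest p this design can give. Among single genes 70.5% of all tested did not overlap either, and no such share was computed for ratios of other genes. A difference in type V was also seen in a pair chosen after its values were known, Col5a3 over Col5a1, with 0.102 to 0.108 per kb in vehicle libraries and 0.0170 to 0.0215 in β-SITO libraries.

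**Figure D4:**
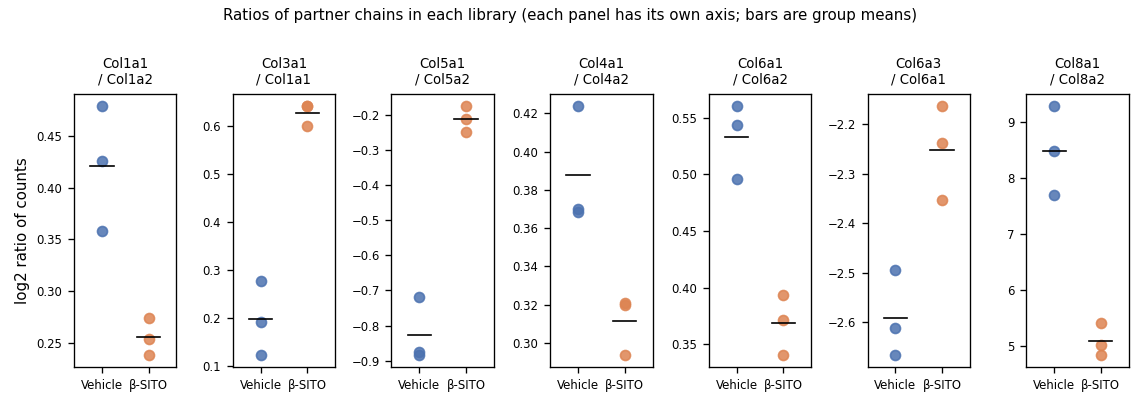
Log2 ratio of the counts of 7 pairs of chains in each library, with HO + Vehicle in blue, HO + β-SITO in orange, a bar at each group mean and an axis of its own in each panel. The groups do not overlap in any of the 7 panels, and the differences run from -3.39 for Col8a1 over Col8a2 to 0.61 for Col5a1 over Col5a2.

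Several type IV genes lie head to head, and the position of Col4a1 and Col4a2 is shown because neither of these neighbours passed the test. In the count table the starts of the pair are 21 bases apart, so that the genes overlap by 22 bases. In RefSeq (build GRCm38.p6) the shared stretch is chr8:11312805-11312826, given here on the plus strand, on which Col4a2 runs to the right and Col4a1 to the left.
Col4a1 and Col4a2 shared start: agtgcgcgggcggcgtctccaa
Col4a3 and Col4a4 start 72 bases apart (log2 fold changes 0.51 and 0.93), and Col4a5 and Col4a6 start 1309 bases apart (0.70 and 1.04). Col3a1 and Col5a2 are neighbours of another kind, lying tail to tail on chromosome 1. They have 24614 bases between the genes but 191744 between their starts, and had log2 fold changes of 0.85 and 0.29.

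The stretches before the starts of the 3 standard type VI chains are shown because these genes rose together, beside Col3a1 as the chain with most counts. RefSeq windows, from 250 bases before to 50 after a start, matched 35 of the 44 chains with 38 windows (GRCm38.p6). Each line gives up to 200 bases of the longest stretch before the start that no GENCODE vM21 exon covers, 5′ to 3′ on the strand of the gene. The Col6a1 line stops short of its start at chr10:76726044, and the other lines reach theirs, so the lines are not aligned. The Col6a2 line belongs to the start at chr10:76623630, and a second window of this gene, with its start at chr10:76623404, is not shown. Capitals mark the motifs searched on both strands, which could overlap. They were the CCAAT box, the TATAAA form of the TATA box and, as the usual GC box, GGGCGG.
Col6a1, chr10:76726169-76726294, minus strand: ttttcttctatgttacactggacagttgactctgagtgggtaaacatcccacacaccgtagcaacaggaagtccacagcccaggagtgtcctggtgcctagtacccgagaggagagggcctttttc
Col6a2, chr10:76623631-76623830, minus strand: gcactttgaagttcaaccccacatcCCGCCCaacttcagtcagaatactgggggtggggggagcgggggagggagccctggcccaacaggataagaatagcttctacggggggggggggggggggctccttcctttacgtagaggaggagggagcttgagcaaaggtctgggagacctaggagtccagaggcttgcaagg
Col6a3, chr1:90843972-90844171, minus strand: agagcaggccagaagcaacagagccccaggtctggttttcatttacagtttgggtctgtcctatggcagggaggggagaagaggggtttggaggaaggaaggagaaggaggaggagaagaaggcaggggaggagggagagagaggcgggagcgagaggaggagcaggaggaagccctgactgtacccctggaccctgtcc
Col3a1, chr1:45311338-45311537, plus strand: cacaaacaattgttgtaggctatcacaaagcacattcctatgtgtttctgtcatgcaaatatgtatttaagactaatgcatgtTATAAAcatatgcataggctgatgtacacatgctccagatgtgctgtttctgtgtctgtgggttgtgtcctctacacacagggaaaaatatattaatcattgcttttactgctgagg
TATAAA was found in the window of Col3a1 and GGGCGG in both windows of Col6a2, and none of the 3 motifs was in the windows of Col6a1 and Col6a3. Over the chains, GGGCGG was in 23 of 38 windows (60.5%), against 35.7% of all 32851 windows. CCAAT was in 13 of 38 (34.2%), against 37.4%, and TATAAA in 5 of 38 (13.2%), against 13.6%. These are matches of letters and were not tested for binding.

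The genes that modify, fold, cut and cross-link collagen did not move as one with the chains. Of 50 genes on 6 lists 47 were tested, 6 were called higher (12.7% of all genes) and 7 lower (10.1%), and the median log2 fold change was 0.25. The enzymes that hydroxylate prolines and so make the helix stable at body temperature are built from P4ha1, P4ha2 or P4ha3 with P4hb. P4ha1 had 864, 867 and 905 CPM in V1, V2 and V3 and 489, 489 and 478 CPM in T4, T5 and T6. On the log2 scale P4ha1 changed by -0.86 ± 0.058 (SE; edgeR adjusted p = 5.24e-11). P4ha2, the second catalytic subunit, was scarcer and fell further. P4ha2 had 277, 268 and 254 CPM in V1, V2 and V3 and 70.0, 81.7 and 90.5 CPM in T4, T5 and T6. The log2 fold change of P4ha2 was -1.72 ± 0.078 (SE; edgeR adjusted p = 2.25e-12). P4ha1 was thus 1.81-fold and P4ha2 3.30-fold lower in the libraries in which Col1a1, Col1a2 and Col3a1 were higher. P4hb was lower by a smaller amount, with 1441 to 1523 CPM against 1250 to 1285 CPM (log2 fold change -0.21, edgeR adjusted p = 3.79e-03). It did not pass with upper quartile scaling (-0.067, edgeR adjusted p = 0.322), with library size only (-0.062, edgeR adjusted p = 0.364) or without T5 (-0.17, edgeR adjusted p = 0.0557). Among the lysyl hydroxylases, Plod3 was called lower and Plod2 was higher without a call. Plod3 had 369, 364 and 344 CPM in V1, V2 and V3 and 154, 161 and 161 CPM in T4, T5 and T6. This was a log2 fold change of -1.18 ± 0.058 (SE; edgeR adjusted p = 2.92e-13). Plod2, whose product acts on the ends of fibrillar chains where cross-links form, went the other way. Plod2 had 186, 193 and 215 CPM in V1, V2 and V3 and 375, 375 and 368 CPM in T4, T5 and T6. Its log2 fold change was 0.91 ± 0.063 (SE), with an edgeR adjusted p = 6.47e-11. Of the 13 hydroxylases and partners 7 passed higher and 5 lower with no fold cutoff, against 33.0% and 33.9% of all genes. Their summed level was 4057 to 4142 CPM in vehicle libraries and 3284 to 3332 CPM in β-SITO libraries. Of 2 glycosyltransferases, Colgalt2 was called higher from at most 0.434 CPM to at least 4.42 CPM (log2 fold change 3.95), and the far more abundant Colgalt1 had 225 to 249 CPM in both groups. Colgalt2, 1 of the 6 genes called higher over the lists, had 3, 4 and 7 counts in V1, V2 and V3. It reached 10 counts only in HO + β-SITO libraries, so it had to differ.

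Of 10 chaperone and secretion genes 1 was called lower and 0 higher by edgeR, 6 passed lower and 1 higher with no fold cutoff (all genes, 10.1%, 12.7%, 33.9% and 33.0% in this order), and their median log2 fold change was -0.22. Serpinh1, the collagen-specific chaperone of the endoplasmic reticulum, was lower after TMM normalization. Serpinh1 had 2813, 2875 and 2688 CPM in V1, V2 and V3 and 2273, 2319 and 2306 CPM in T4, T5 and T6. For Serpinh1 the log2 fold change was -0.28 ± 0.06 (SE; edgeR adjusted p = 3.63e-04). It did not pass with upper quartile scaling (-0.14, edgeR adjusted p = 0.0505) or library size only (-0.13, edgeR adjusted p = 0.0601). Creb3l1, a membrane-bound transcription factor known to act on type I collagen genes, was called lower. Creb3l1 had 229.6, 222 and 207 CPM in V1, V2 and V3 and 77.2, 85.3 and 82.0 CPM in T4, T5 and T6. On the log2 scale Creb3l1 changed by -1.43 ± 0.062 (SE; edgeR adjusted p = 3.65e-14). It had 2.69-fold lower levels in the HO + β-SITO libraries. Genes for the trimming of procollagen ends split in both directions. Adamts2, which encodes a proteinase, and Pcolce2, which encodes an enhancer of procollagen trimming that does not cut, were called higher (log2 fold changes 1.16 and 1.70). Adamts14 and Tll1 were called lower (-3.20 and -2.19), and Bmp1 passed lower without a call (-0.33). Adamts2 and Adamts14 both remove the amino-terminal propeptide, and they had 413 to 444 and 99.2 to 103 CPM in vehicle libraries and 943 to 976 and 9.56 to 12.2 CPM in β-SITO libraries. Of 6 cross-linking enzymes 0 were called higher and 1 lower by edgeR, 5 passed higher with no fold cutoff (33.0% of all genes), and Lox had 1024 to 1075 against 1328 to 1416 CPM (log2 fold change 0.41). Loxl3 was called lower, with 220 to 236 against 65.2 to 69.0 CPM (log2 fold change -1.77). Among 9 tested receptors, the integrin genes Itga1 and Itga11 and the collagen uptake receptor gene Mrc2 were called higher (1.15, 1.65 and 1.26), Itga2 was called lower (-2.19) and Ddr2 passed higher without a call (0.27). The call of Itga1 was lost with glmTreat. Without T4, Itga10 was called higher too, which made 7 calls higher and 7 lower over the 6 lists.

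**Figure D5:**
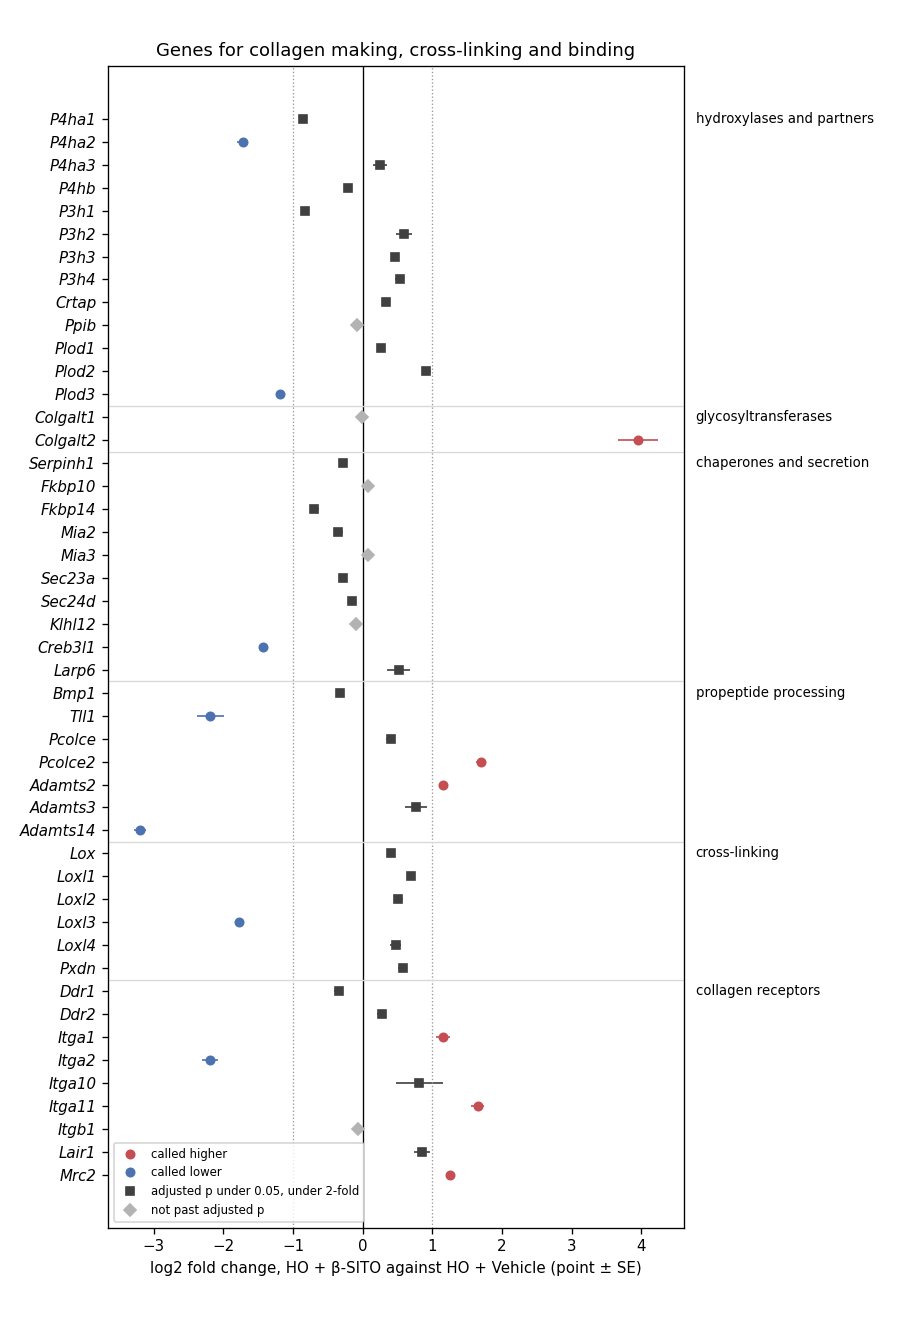
Log2 fold change of the 47 tested genes that modify, fold, process, cross-link or bind collagen, HO + β-SITO against HO + Vehicle, with the standard error (SE) as a bar and dotted lines at 2-fold. Hydroxylase and chaperone genes lie on both sides of 0, with P4ha2, Plod3 and Creb3l1 called lower, and 5 of 6 cross-linking genes lie above 0.

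Markers of several cell types that make collagen were higher in the same libraries as the chains, and their part in the changes was not tested. The calls below stand beside 12.7% of all genes called higher and 10.1% called lower. Counts with no fold cutoff stand beside 33.0% of all genes that passed higher and 33.9% that passed lower. Of 11 fibroblast markers 4 were called higher and 0 lower by edgeR, 8 passed higher and 2 lower with no fold cutoff, and their median log2 fold change was 0.89, beside 0.90 for the chains. Their summed level overlapped between the groups, with 4298 to 4748 CPM in the HO + Vehicle and 4662 to 4969 CPM in the HO + β-SITO libraries. Members differed, since Dcn, which encodes the fibril-binding proteoglycan decorin, fell by 0.52 on the log2 scale, Pdgfra had a log2 fold change of 0.13 (edgeR adjusted p = 0.0819), and Dpt, whose protein dermatopontin also binds fibrils, rose by 1.84. All 10 smooth muscle and pericyte markers passed higher, 6 of them called (7 without T4, with Acta2 added), with a summed level of 1191 to 1298 against 2136 to 2428 CPM. Endothelial markers were called higher for 9 of 10, with a median log2 fold change of 1.84 over the list. Their summed level was 697 to 818 against 951 to 1003 CPM. A large part of this sum in vehicle libraries was Flt1, which was called lower, with 477 to 566 against 97.7 to 114 CPM. Of 12 macrophage markers 7 were called higher and 1 lower, with 1258 to 1387 against 2704 to 3321 CPM. Epicardial markers summed to 113 to 120 against 156 to 189 CPM, with 2 of 6 called higher. The cardiomyocyte markers summed to 6972 to 7957 against 6093 to 10430 CPM, with 3 of 14 called higher (4 without T4, with Myh7 added) and 10 not past the test.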

How the data were processed

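RNA-seq was performed on 6 libraries of hypoxic NMCMs. The authors sequenced paired-end reads and deposited 1 table of raw gene counts without normalization. Per the labels, the tools were FastQC, HISAT2 and featureCounts and the build was GRCm39, and versions, strand setting and treatment of multi-mapped reads are not given in the sources used here. The library kit is named differently in the paper (ABclonal) and the labels (Illumina). Groups were taken from the sample labels.

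Counts were analysed with R 4.3.3 and edgeR 4.0.16 (filterByExpr, TMM, quasi-likelihood test, Benjamini-Hochberg adjustment over 14799 tested genes). Calls used the study's thresholds (adjusted p under 0.05, change over 2-fold). Shares and chain ratios (counts + 0.5) were compared with two-sided exact permutation tests. Alternatives were DESeq2 1.42.0, limma 3.58.1 (voom), glmTreat, other normalizations and filters, removal of mitochondrially encoded genes and of each library. The members, classes and lists were chosen with earlier results of these data known. Chains were named by a rule on calls, level and pairs, and the rest are given by ranges. Exon lengths, coding sequences and primer matches came from GENCODE vM21 by gene identifier. Fitting was tested on simulated data. No pair of libraries of a group agreed within counting noise. 1 further marker list is not reported here.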

Additional observations from a re-analysis of the deposited data

How the results depend on the processing

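The calls of 15 of the 18 called chains held under all 16 alternatives, and those of Col4a6, Col6a5 and Col14a1 were lost only with glmTreat. Of 592 values of single chains under these alternatives, 571 kept direction and call, 3 lost a call, 12 gained one and 6 changed sign. The sign changes were in chains that did not pass: Col4a1 with upper quartile (0.071) and library size only (0.075), Col4a2 without V2 (-0.018) and without T4 (-0.0083, range -0.018 to 0.074 with each library left out), and Col11a2 without V2 (-0.19) and without V3 (-0.088, range -0.19 to 0.55). Calls were gained by 7 chains, among them Col3a1, Col5a1, Col4a4 and Col23a1 with library size only, a setting that moved the median of all genes from -0.0073 to 0.14 on the log2 scale. The same setting and upper quartile scaling took Col4a2 (0.15 each) and Col24a1 past the adjusted p and P4hb and Serpinh1 out of it (-0.062 and -0.13 with library size only), and moved Col8a1 to 0.37, Ddr2 to 0.42 and Bmp1 to -0.18 in both settings, and library size only moved Col5a2 to 0.44. With glmTreat, which tests against 2-fold, 2427 genes and 13 chains higher passed the adjusted p in place of 9895 and 29. The median log2 fold change of the chains was 0.90, and it was 1.04 with upper quartile, 1.05 with library size only and 0.85 to 0.97 with each library left out. Without mitochondrially encoded genes, the difference in the share of counts was 2.07 points in place of 2.0 for fibrillar chains and 0.385 in place of 0.375 for the other classes. The chain ratios kept their signs and moved by less than 1 SD between libraries with each library left out and with a pseudocount of 5. No paired analysis was possible because replicates are numbered 1 to 3 in one group and 4 to 6 in the other. With 3 libraries a group, no exact permutation test can pass 0.05, and chains under about 20 counts are measured too coarsely for small changes to show.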
